A study of Rattus norvegicus with 12 samples.

Results

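Proneural, Hes and Id genes encode helix-loop-helix transcription factors and their inhibitors. The 8 genes described here are the activators Neurog1 and Neurod1, the repressors Hes1 and Hes5, and the inhibitors Id1, Id2, Id3 and Id4. They were taken by symbol from the array platform's gene table, in which 13 of 31099 probe sets named a single symbol from this set, and they are 8 of the 14218 genes measured. All 8 passed the filter on dim genes, a highest line mean of at least 5 on the log2 scale, which kept 11001 genes. Where a gene had several probe sets, the one with the highest mean over all 12 arrays stood for it.

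Messenger RNA was measured on 12 single-colour Affymetrix rat arrays, of which each of 3 cell types had 4 and each line had 2. The arrays labelled iPS came from the induced pluripotent stem cell lines A1 and A2 of the FHH strain, made with a transposon system per the series title. They were kept on Mitomycin C-treated mouse embryonic fibroblast feeders, and the labels name both a knock-out serum medium with LIF and a 2i medium. Those labelled ES were hybridised with RNA of embryonic stem cells of the lines DAC2 and DAC8, also in 2i medium; no label states their strain. The arrays labelled EF came from the FHH embryonic fibroblast cultures REF1 and REF2, made from e14.5 embryos and kept in MEF medium. Cells labelled iPS or ES were harvested 5 days after passage, and those labelled EF after 6 days. SSEA-1, Oct4, Nanog and Sox2 are each recorded as positive in the labels of both stem cell types, and the stated aim was to set the expression profile of iPS cells against that of ES cells. The labels do not say whether feeders were removed, how many clones a line holds, or whether separate cultures supplied the paired arrays of a line. The spread behind p-values between lines is thus that of these arrays, which may be technical.

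Proneural factors pair with E proteins such as Tcf3, Tcf4 and Tcf12, bind E-box sequences and switch on neuronal genes, among them Notch ligands. Ligand on a neighbouring cell activates Notch, whose cleaved form joins Rbpj on target genes such as Hes1 and Hes5; their products bind N-box sequences, recruit Tle corepressors and hold proneural genes down. Id proteins lack the basic region that contacts DNA, so they take E proteins out of use, and Id genes are well-known targets of BMP signalling through Smad proteins. In mouse embryonic stem cells, Id proteins downstream of BMP restrain neural differentiation.

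The 300 bases around the start of each gene, 250 before it and 50 from it on, were read from RefSeq promoters of the rat assembly GRCr8, in which all 8 genes were found. The promoters of both Hes genes are shown for the Rbpj-type motif GTGGGAA, and those of Neurog1 and Neurod1 for the N-box CACNAG; each motif was searched on both strands and its matches are in capitals. The Hes1 promoter lies at chr11:84212996-84213295 on the minus strand, the Hes5 promoter at chr5:170804327-170804626 on the plus strand, the Neurog1 promoter at chr17:8367846-8368145 on the plus strand, and the Neurod1 promoter at chr3:84770405-84770704 on the minus strand. Each is written in the direction of transcription, 5′ to 3′.
Hes1: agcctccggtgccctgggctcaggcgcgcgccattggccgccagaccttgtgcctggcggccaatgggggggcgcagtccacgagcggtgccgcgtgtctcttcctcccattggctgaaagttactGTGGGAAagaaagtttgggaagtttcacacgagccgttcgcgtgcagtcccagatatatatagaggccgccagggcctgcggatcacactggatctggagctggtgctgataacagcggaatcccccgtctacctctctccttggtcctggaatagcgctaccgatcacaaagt
Hes5: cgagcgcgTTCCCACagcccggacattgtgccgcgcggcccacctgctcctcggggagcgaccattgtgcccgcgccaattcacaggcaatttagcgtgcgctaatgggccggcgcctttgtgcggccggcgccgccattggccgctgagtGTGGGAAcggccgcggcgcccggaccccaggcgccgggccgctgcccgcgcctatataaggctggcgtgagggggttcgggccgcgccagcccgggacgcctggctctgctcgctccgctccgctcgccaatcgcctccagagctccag
Neurog1: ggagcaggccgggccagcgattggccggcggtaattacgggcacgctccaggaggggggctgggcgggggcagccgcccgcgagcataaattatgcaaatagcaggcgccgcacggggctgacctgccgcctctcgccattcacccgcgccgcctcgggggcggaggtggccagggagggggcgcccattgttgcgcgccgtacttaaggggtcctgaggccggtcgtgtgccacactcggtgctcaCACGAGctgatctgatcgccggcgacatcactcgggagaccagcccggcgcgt
Neurod1: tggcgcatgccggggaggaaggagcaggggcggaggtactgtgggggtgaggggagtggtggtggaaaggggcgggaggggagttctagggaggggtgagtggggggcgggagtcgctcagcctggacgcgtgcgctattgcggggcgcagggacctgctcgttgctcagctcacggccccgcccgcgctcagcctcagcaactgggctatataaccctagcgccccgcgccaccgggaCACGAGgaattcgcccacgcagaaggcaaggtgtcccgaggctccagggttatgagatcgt

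GTGGGAA occurred 1 time in the Hes1 window, with its first base 124 bases before the start, and 2 times in the Hes5 window, with first bases 242 and 99 bases before the start. It was found in 2 of the 8 members' windows and in 6.29% of 33469 RefSeq rat promoters of the same length. CACNAG occurred 4 times in the Hes1 window and 1 time each in the Neurog1, Neurod1 and Id2 windows, with its first base 3 bases before the start in Neurog1 and 11 bases before it in Neurod1. Of all promoters, 43.1% held CACNAG. The E-box CANNTG was in the windows of Neurod1, Hes5, Id1 and Id2 and in 72.1% of all promoters. The GC-rich Smad motif GGCGCC was present 4 times in Hes5, 2 times in Neurog1 and 1 time in Id4, against 11% of all promoters with at least 1 match. No matches of different motifs overlapped in these windows. These matches describe the letters of the windows only, and no binding was measured.

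Array medians lay between 5.28 and 5.41 on the log2 scale. Over the 11001 genes that passed the filter, 2 arrays of a line correlated at r = 0.996 to 0.998. The 3′ actin control signal minus the 5′ one, a measure of RNA quality, split the lines. It was 0.42 to 0.52 log2 units in DAC8 and REF1, against 0.84 to 1.05 in A1, A2, DAC2 and REF2. Its part in the differences between lines was not tested. The libraries labelled DAC8 and REF2 went against their labels. Of 12 fibroblast markers, 11 were at 5 or more on both arrays labelled DAC8 and 11 on both labelled REF1, against 3 on those labelled DAC2 and 2 on those labelled REF2. Of 10 measured pluripotent and epithelial markers, 10 were at 5 or more in both DAC2 and REF2, while only 3 were in DAC8 and in REF1. The iPS arrays also went against their label: 3 of these 10 were at 5 or more in A1 and 4 in A2, while the median level of 10 neuronal markers was 10.6 to 10.7 in A1 and A2, 4.18 to 4.23 in DAC2, 6.30 to 6.34 in DAC8, 6.26 to 6.31 in REF1 and 4.93 to 5.10 in REF2. No array was moved to another group, names below are those of the labels, and each result is given by cell type as labelled and by line. In bulk RNA, a change in the share of cells of a type and a change in RNA per cell cannot be told apart, and RNA of mouse feeders may bind rat probes; the part of either in the results was not tested.

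The proneural genes were bright in the iPS lines and dim elsewhere, while Id3 and Hes1 were lower in the iPS lines than in every other line. In limma with the line as a random block, a gene was called at an adjusted p under 0.05 and a difference of at least 1 log2 unit, which is 2-fold. Against ES, 3 of the 8 genes were called higher in iPS (Neurog1, Neurod1, Hes5) and 1 lower (Id3), where 2.98% of all tested genes were called higher and 1.67% lower. Against EF, 3 were called higher (Neurog1, Neurod1, Hes5) and 2 lower (Hes1, Id3), where 3.07% of all tested genes were called higher and 1.98% lower. The iPS arrays are the same in both comparisons, so these are not independent results. Neurog1, Neurod1 and Hes5 were below 5 on all ES and EF arrays and passed the filter only through the iPS lines. Their higher calls, here and in the setting below, are thus partly set by the filter. Without the arrays labelled DAC8 and REF2, 6 of the 8 genes were called against ES and 7 against EF, where 30% and 32.8% of the 10867 genes then tested were called in either direction. In that setting ES was DAC2 alone and EF was REF1 alone, so no spread between ES lines or between EF lines entered these p-values. Only A1 and A2 gave a spread between lines of a cell type.

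**Figure D1:**
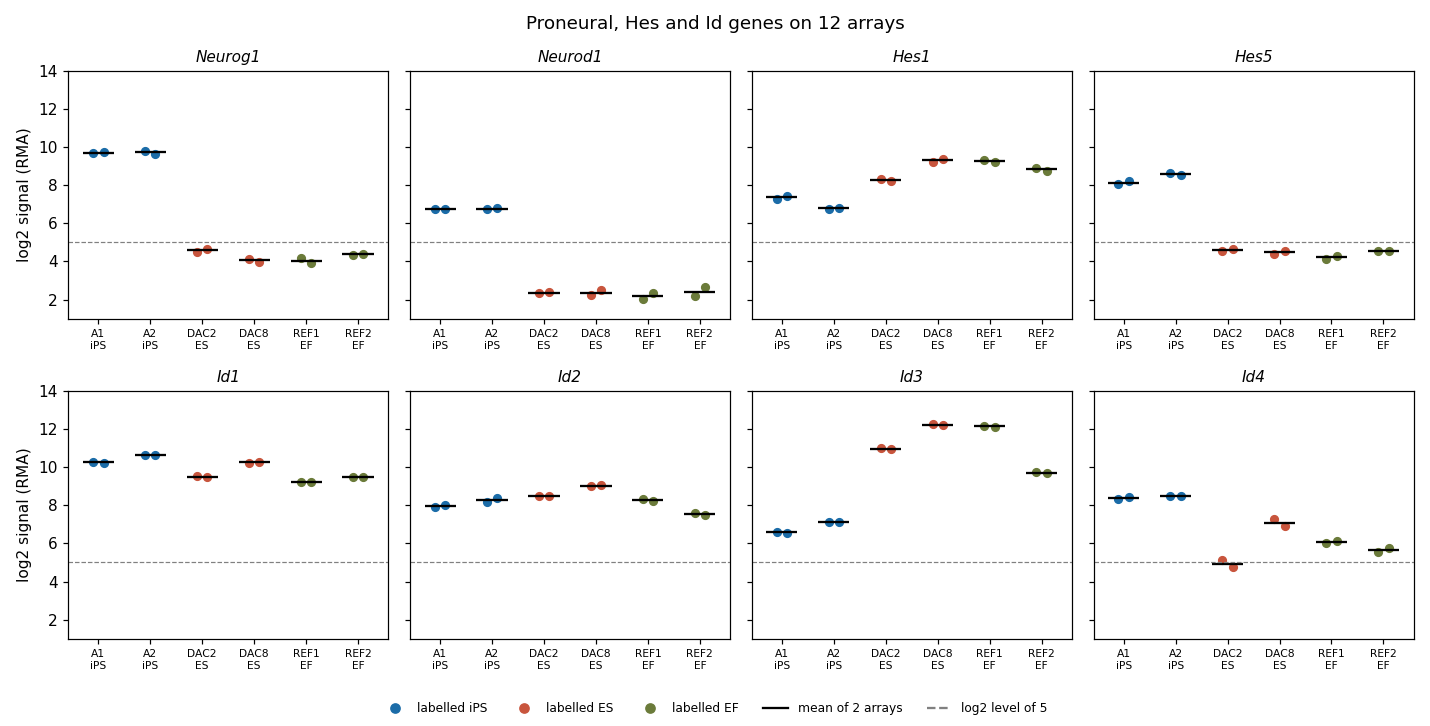
Each panel plots the log2 RMA signal of the probe set that stands for a gene, with a point per array and a bar at the mean of the 2 arrays of each line; the dashed line marks a log2 level of 5. Neurog1, Neurod1 and Hes5 lie above 5 in A1 and A2 and below it in the other lines, and Id3 and Hes1 are lowest in A1 and A2.

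Neurog1 (probe set 1369205_at) specifies neuronal progenitors in the cranial sensory ganglia and the dorsal brain and spinal cord. Its log2 level was 9.69 and 9.72 in A1 and 9.78 and 9.66 in A2, against 4.51 and 4.65 in DAC2, 4.14 and 3.98 in DAC8, 4.18 and 3.90 in REF1, and 4.35 and 4.41 in REF2. All 4 iPS arrays lay more than 5 log2 units above the brightest other array, and none of the other arrays reached the level of 5 used as the filter. The difference was 5.39 ± 0.49 log2 units against ES (SE, 41.9-fold; limma adjusted p = 0.000138) and 5.50 ± 0.49 against EF (45.3-fold; limma adjusted p = 0.000103). Since the other lines were not shown to be above background, these differences are lower bounds at best. A1 and A2 overlapped, and DAC8 and REF1 overlapped at the low end.

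Neurod1 (1387288_at), which acts after the neurogenins in neurons as they differentiate, had the same shape at lower signal. Its level was 6.73 and 6.77 in A1 and 6.74 and 6.78 in A2, against 2.33 and 2.37 in DAC2, 2.21 and 2.49 in DAC8, 2.05 and 2.37 in REF1, and 2.17 and 2.65 in REF2. The 8 non-iPS arrays lay near the bottom of the array's range, whose lowest value was 1.45. In these low arrays the order of the lines carries no information, since each neighbour in the order overlapped the next. The difference was 4.40 ± 0.74 log2 units against ES (21.1-fold; limma adjusted p = 0.00571) and 4.44 ± 0.74 against EF (21.8-fold; limma adjusted p = 0.00492). With either iPS line left out, neither comparison called Neurod1: the differences stayed between 4.40 and 4.45 and the adjusted p lay between 0.17 and 0.201.

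Against EF, the Hes genes moved in opposite directions. Hes1 (1387036_at), a Notch-responsive repressor that many cell types also express without Notch, was at 5 or more on all 12 arrays. Its level was 7.30 and 7.43 in A1 and 6.76 and 6.82 in A2, against 8.33 and 8.21 in DAC2, 9.23 and 9.36 in DAC8, 9.32 and 9.21 in REF1, and 8.91 and 8.76 in REF2. Every iPS array lay below every other array, and only DAC8 and REF1 overlapped among neighbouring lines. Against ES the difference was -1.71 ± 0.47 log2 units and was not called (limma adjusted p = 0.0672). Against EF, Hes1 fell by 1.97 ± 0.47 log2 units (3.93-fold; limma adjusted p = 0.0331). That EF call was lost without A1 (adjusted p = 0.237), A2 (0.568) or REF1 (0.0958), without either array of A2 (0.0533 and 0.0511), with 1 mean per line (0.163) and with a replicate block (0.0542). The ES comparison gained a call without DAC2 (adjusted p = 0.0273), where Hes1 was lowest among the non-iPS lines, and without REF2 (0.0443). It was also called with quantile normalization (-1.76, adjusted p = 0.0299), equal array medians (-1.77, 0.0496), no filter (0.023) and no line block (0.00124).

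Hes5 (1368942_at), the Hes gene most closely tied to Notch activity in neural progenitors, reached 5 in the iPS lines alone by this probe set. Its level was 8.04 and 8.21 in A1 and 8.65 and 8.53 in A2, against 4.57 and 4.64 in DAC2, 4.39 and 4.55 in DAC8, 4.15 and 4.28 in REF1, and 4.53 and 4.54 in REF2. No other array reached 5. Hes5 was higher by 3.82 ± 0.42 log2 units against ES (14.1-fold; limma adjusted p = 0.000383) and by 3.98 ± 0.42 against EF (15.8-fold; limma adjusted p = 0.000291). The other Hes5 probe set, 1375713_at, disagreed: it stayed between 4.61 and 5.27 on all 12 arrays, with a difference of -0.31 ± 0.43 against ES (limma adjusted p = 0.849 over all probe sets) and -0.23 ± 0.43 against EF (0.932). Which of the 2 sets follows the transcript was not tested. With the mean of both sets in place of the brighter, Hes5 was higher by 1.76 log2 units against ES (limma adjusted p = 0.0905) and 1.88 against EF (0.0654), and neither was called.

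The 4 Id genes did not move together. Id3 (1387769_a_at) is a BMP and growth factor responsive gene that is expressed in many dividing cell types. Its level was 6.62 and 6.52 in A1 and 7.13 and 7.11 in A2, against 10.99 and 10.94 in DAC2, 12.27 and 12.20 in DAC8, 12.18 and 12.10 in REF1, and 9.73 and 9.67 in REF2. No 2 neighbouring lines overlapped, and the lowest non-iPS line, REF2, was 2.58 log2 units above A2. Id3 fell by 4.75 ± 0.65 log2 units against ES (27.0-fold; limma adjusted p = 0.00166) and by 4.07 ± 0.65 against EF (16.8-fold; limma adjusted p = 0.00386). With 1 mean per line both calls were lost (adjusted p = 0.123 and 0.165). They were also lost without A1 (0.0693 and 0.112), and the EF call was lost without A2 (0.0803).

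Id4 (1394022_at), an Id gene of neural progenitors that delays their differentiation, was highest in the iPS lines. Its level was 8.34 and 8.45 in A1 and 8.51 and 8.5 in A2, against 5.11 and 4.74 in DAC2, 7.27 and 6.89 in DAC8, 6.01 and 6.13 in REF1, and 5.57 and 5.76 in REF2. All iPS arrays lay above all others, but the ES mean of 6.00 ± 1.27 (SD, n = 4) joined lines that differed from each other by 2.16 log2 units. Differences of 2.45 ± 0.82 against ES (limma adjusted p = 0.139) and 2.58 ± 0.82 against EF (0.111) were not called. Without DAC8 they were called (3.53, adjusted p = 0.0127, and 2.58, adjusted p = 0.015), and the EF difference was called without DAC2 (adjusted p = 0.0155) and with no filter (0.0388) as well. Both were called with no line block (0.00397 and 0.00272). The 3 dimmer Id4 sets were also highest in the iPS lines by mean, at 6.56 to 6.86 for 1375120_at, 4.43 to 4.98 for 1375183_at and 4.03 to 4.42 for 1385923_at. The last 2 never reached 5 on any array.

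Id1 (1387028_a_at), the Id gene most often used as a readout of BMP signalling, was bright in every line. Its level was 10.28 and 10.24 in A1 and 10.65 and 10.64 in A2, against 9.52 and 9.49 in DAC2, 10.22 and 10.29 in DAC8, 9.25 and 9.22 in REF1, and 9.51 and 9.51 in REF2. A1 and DAC8 overlapped, as did DAC2 and REF2. The differences of 0.57 ± 0.30 against ES (limma adjusted p = 0.421) and 1.08 ± 0.30 against EF (0.0678) were not called, although every iPS array lay above every EF array. Against EF, Id1 was called without DAC2 (adjusted p = 0.0285) or DAC8 (0.0238), and also with no filter (0.0332), with an intensity trend (0.0302) and with no line block (0.0027).

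Id2 (1375532_at), an Id gene linked to Myc activity and to glial and lymphoid fates, was at 5 or more on all 12 arrays, with line means between 7.54 in REF2 and 9.03 in DAC8. Its level was 7.89 and 8.01 in A1 and 8.16 and 8.40 in A2, against 8.51 and 8.48 in DAC2, 9.02 and 9.04 in DAC8, 8.31 and 8.24 in REF1, and 7.61 and 7.47 in REF2. DAC8 was highest and REF2 lowest, with the iPS lines between them. Neither the difference of -0.65 ± 0.45 against ES (limma adjusted p = 0.562) nor that of 0.21 ± 0.45 against EF (0.883) was called. The dimmer set 1368870_at put DAC8 highest (8.85 on both arrays) and REF2 lowest (6.96 on both) as well. By that set the iPS lines were called lower than DAC8 (-1.24, limma adjusted p = 9.7e-08 over all probe sets), and Id2 was called higher in DAC2 than in REF2 (1.13) and in DAC8 than in REF1 (1.04).

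**Figure D2:**
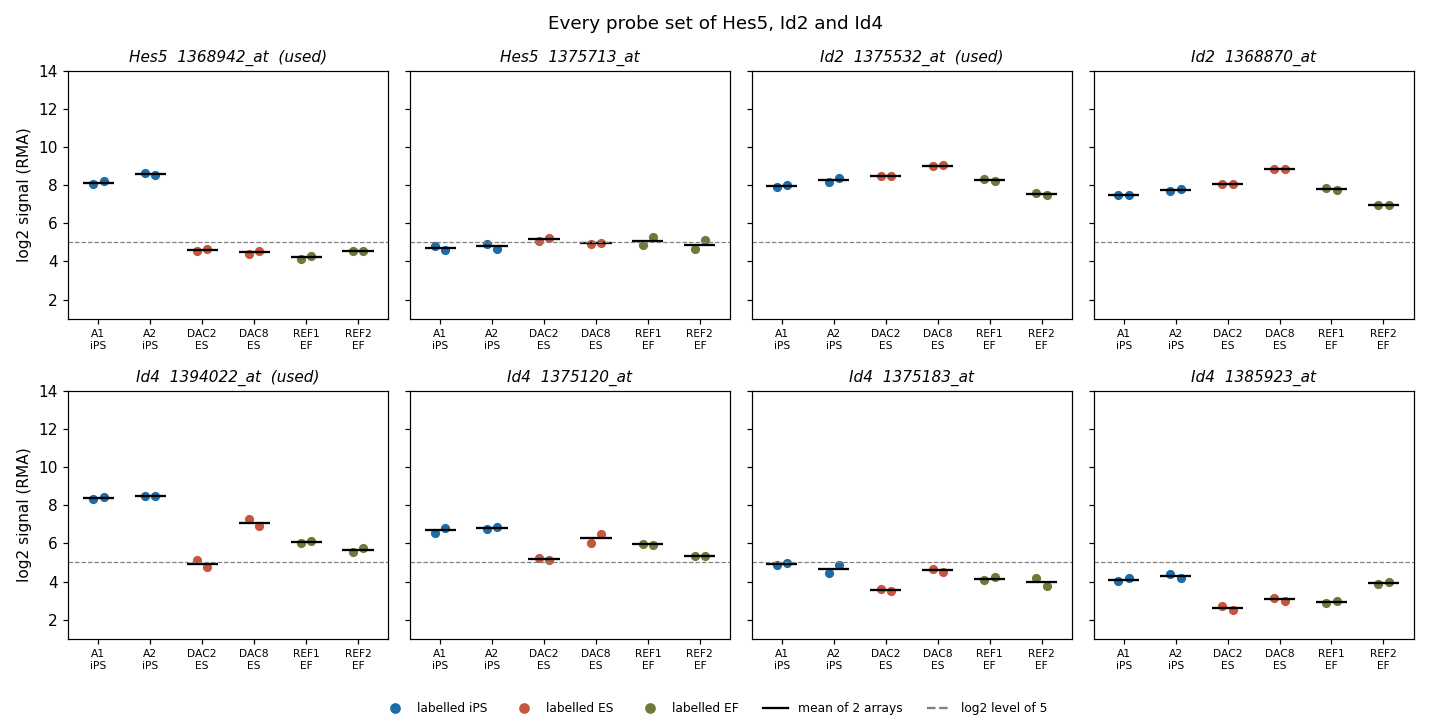
Each panel plots the log2 RMA signal of 1 probe set of Hes5, Id2 or Id4 by line, with a point per array, a bar at the line mean and a dashed line at 5. The second Hes5 set stays near 5 in all lines, both Id2 sets are highest in DAC8 and lowest in REF2, and the Id4 sets differ in signal.

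Neurog1, Neurod1 and Hes5 were below 5 on all ES and EF arrays and entered the test through the iPS lines, so for them no difference between ES and EF is read. Between arrays labelled ES and those labelled EF, limma called 0 of the 8 genes, 0 passed an unadjusted p under 0.05, and 0% of all tested genes were called higher and 0% lower. Of all 11001 genes, 21 had an unadjusted p under 0.05 (0.191%). The smallest p among the members was 0.0819 for Id2, with a difference of 0.86 ± 0.45 log2 units and no overlap between its ES and EF arrays. Each of these groups held a line with many fibroblast markers and a line with few. With DAC8 and REF2 left out, only DAC2 against REF1 remained of this comparison. Id3 and Id4 were then called, where 41.1% of the 10867 genes then tested were called in either direction. The p-values of that setting hold no spread between ES lines or between EF lines.

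Compared line by line in a second limma model, whose factor was the line, the iPS lines differed from each other line in most of these genes. Against DAC2, 4 of the 8 genes were called higher (Neurog1, Neurod1, Hes5, Id4) and 2 lower (Hes1, Id3), where 16.5% of all tested genes were called higher and 13.3% lower. Against DAC8, the same count of 4 and 2 was found, where 15.6% were called higher and 16.2% lower. There Id4 was not called with the mean of its probe sets (0.79 log2 units) or by its set 1375120_at (0.48), while Id2 was called lower with the mean of its sets (-1.08). Against REF1, 5 were called higher, with Id1 added, and 2 lower, where 16.4% were called higher and 16.4% lower. Against REF2, 4 were called higher and 2 lower, where 15.8% were called higher and 15% lower. The median difference of all tested genes lay between -0.07 and 0.12 in these 4 comparisons, which share the iPS arrays. Neurog1, Neurod1 and Hes5 passed the filter only through the iPS lines, so their calls in all 4 are partly set by it.

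The size of the differences varied by gene and line. Neurog1 was higher in the iPS lines by 5.13, 5.65, 5.67 and 5.33 log2 units against DAC2, DAC8, REF1 and REF2 in that order. Neurod1 was higher by 4.40, 4.40, 4.54 and 4.34, and Hes5 by 3.75, 3.88, 4.14 and 3.82. All 4 lines were below 5 for these genes on every array, so how their differences vary over the lines is not read. Hes1 differed by -1.19, -2.22, -2.19 and -1.76 and Id3 by -4.12, -5.39, -5.29 and -2.85 in the same order, so both stood lowest relative to DAC8 and REF1. Id4 was higher by 3.53, 1.37, 2.38 and 2.78. Id1 differed by 0.95, 0.20, 1.22 and 0.95 log2 units and passed 2-fold against REF1, with quantile normalization against REF2 too (1.01), and Id2 differed by -0.38, -0.92, -0.16 and 0.58, under 2-fold in each by its brighter set. The SE of each line difference was between 0.04 and 0.14 log2 units. All limma adjusted p-values of Neurog1, Neurod1, Hes1, Hes5, Id3 and Id4 were below 0.05. So were those of 8952, 8940, 8984 and 8918 of all 11001 tested genes against DAC2, DAC8, REF1 and REF2.

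**Figure D3:**
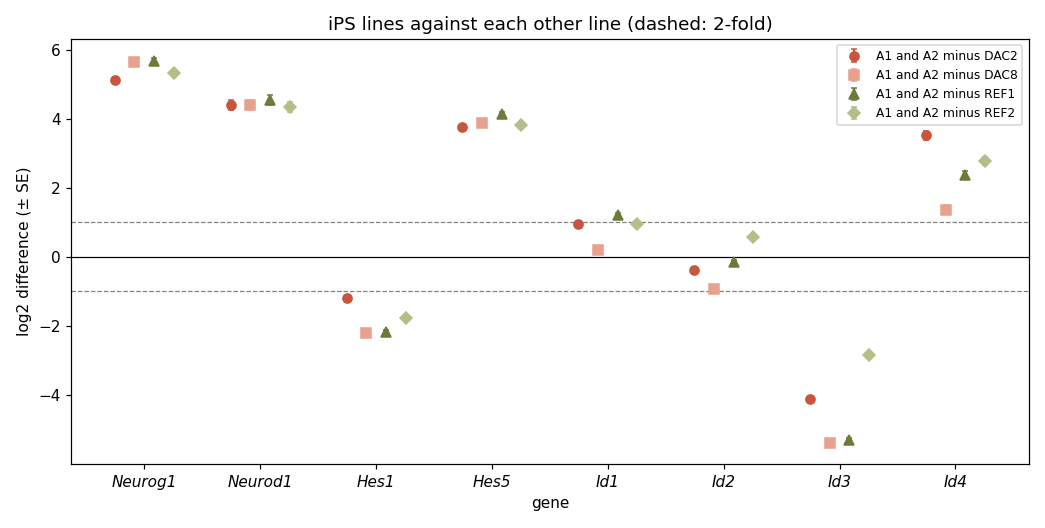
Points give the log2 difference of the mean of A1 and A2 from each other line for the 8 genes, with bars for the SE and dashed lines at 2-fold. Neurog1, Neurod1, Hes5 and Id4 lie above the upper dashed line in all 4 comparisons, and Hes1 and Id3 lie below the lower one.

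Between A1 and A2 differences were small: 0 of the 8 genes were called by limma between them, where 0.136% of all tested genes were called higher in A1 and 0.0818% lower. An unadjusted p under 0.05 was found for 5 of the 8 and for 13.9% of all tested genes. At differences below 2-fold, 4 of the 8 passed an adjusted p under 0.05, against 1.81% of all tested genes at any size. Hes1 was higher in A1 by 0.57 log2 units (limma adjusted p = 0.0126), while Hes5 differed by -0.46 (0.0317), Id1 by -0.39 (0.00776) and Id3 by -0.55 (0.00337). Neurog1 differed by -0.01 and Neurod1 by -0.01.

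DAC2 differed from REF1 in Id3 (-1.17) and Id4 (-1.15), called lower in DAC2, and 0 of the 8 were called higher, where 20.9% of all tested genes were called lower and 20.1% higher. Hes1 lay just under 2-fold there (-0.997 log2 units). DAC2 differed from REF2 in 1 gene, Id3, which was higher by 1.27 in DAC2, where 1.05% of all tested genes were called higher and 2.95% lower. DAC8 differed from REF1 in Id1 (1.02) and Id4 (1.01), both higher in DAC8 and just past 2-fold, where 0.727% of all tested genes were called higher and 0.8% lower. By limma, members with an unadjusted p under 0.05 numbered 7, 4 and 4 of 8 in these 3 comparisons, where 84.9%, 52.9% and 33.5% of all tested genes had one; the 8 include Neurog1, Neurod1 and Hes5, which were below 5 in these lines. Several of these calls rest on 1 array or on the probe set. With the mean of its probe sets, Id4 was not called between DAC2 and REF1 (-0.71) or between DAC8 and REF1 (0.48), and Id2 was called between DAC2 and REF2 (1.04). Between DAC8 and REF1, Id4 was not called without the first array of DAC8 (0.82) or of REF1 (0.95), nor Id1 without the second array of DAC8 (0.99). Between DAC2 and REF1, Id4 was not called without the second array of DAC2 (-0.97), while Hes1 was called without the first array of DAC2 or the second of REF1 (-1.05 in each). Between DAC2 and REF2, Id2 was called without the first array of REF2 (1.03).

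To set activators against inhibitors, each gene was centred on its own mean over the 12 arrays and averaged within its group, since levels of different probe sets are not comparable. The score is a description without a test. Activators stood at 3.28 ± 0.02 in A1 and 3.30 ± 0.02 in A2, against -1.48 ± 0.07 in DAC2, -1.74 ± 0.04 in DAC8, -1.82 ± 0.01 in REF1 and -1.55 ± 0.19 in REF2 (SD, n = 2 arrays each). The Hes mean was 0.71 in A1 and 0.66 in A2, against -0.59 in DAC2, -0.15 in DAC8, -0.29 in REF1 and -0.34 in REF2. It joins Hes5, which was high in the iPS lines, with Hes1, which was low there. The Id mean was -0.39 in A1 and -0.04 in A2, against -0.21 in DAC2, 0.97 in DAC8, 0.25 in REF1 and -0.58 in REF2, so the iPS lines lay within the range of the others and REF2 had the lowest value.

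The activator mean minus the Hes mean was 2.57 ± 0.08 in A1 and 2.64 ± 0.003 in A2, against -0.88 ± 0.08 in DAC2, -1.59 ± 0.06 in DAC8, -1.53 ± 0.007 in REF1 and -1.20 ± 0.24 in REF2. The activator mean minus the Id mean was 3.67 ± 0.01 in A1 and 3.34 ± 0.06 in A2, against -1.27 ± 0.15 in DAC2, -2.71 ± 0.11 in DAC8, -2.07 ± 0.03 in REF1 and -0.97 ± 0.19 in REF2. The centring sets the zero of these values, so their sign does not show that activators exceeded inhibitors; the activator mean itself differed by more than 4 log2 units between the iPS lines and the others. Among the other lines, DAC8 and REF1 had the lowest activator minus Id values, and DAC2 and REF2 the highest. Neurog1 and Neurod1 were below 5 on every array of these lines, so this order is not read as a balance. It follows the Id means, from 0.97 in DAC8 to -0.58 in REF2.

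**Figure D4:**
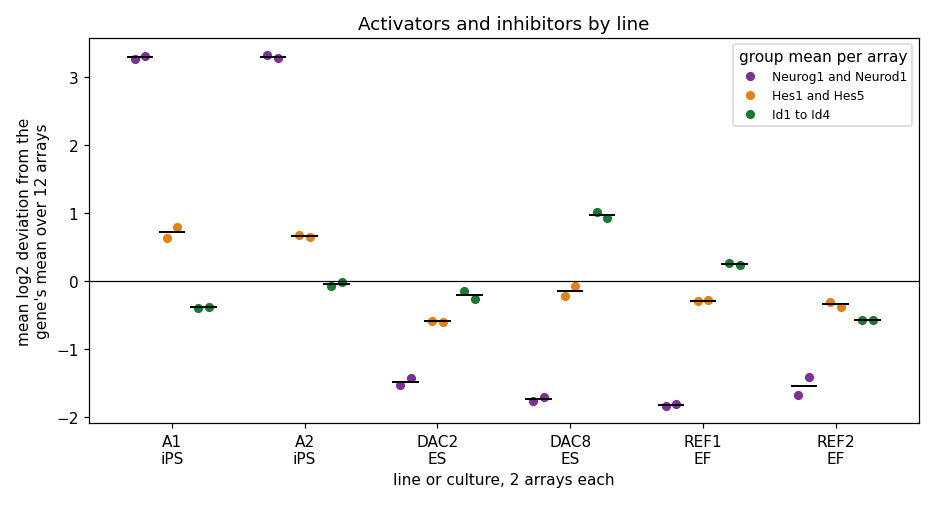
Points give, per array, the mean log2 deviation of Neurog1 and Neurod1, of Hes1 and Hes5, and of Id1 to Id4 from each gene's mean over 12 arrays, with bars at the line means. Activators are above 3 in A1 and A2 and below -1 elsewhere, while the Id mean is highest in DAC8 at 0.97.

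Other neuronal helix-loop-helix genes were mostly dim: of 17 listed, 11 were measured and 4 passed the filter. Tal1, which acts in blood and in GABAergic midbrain neurons, had a mean level of 11.98 in A1 and 12.24 in A2, against 4.26 to 4.71 in the other lines. Nhlh1, a gene of newborn neurons, had 7.65 in A1 and 7.91 in A2, against 3.84 to 4.21. Both were called higher in the iPS lines against each of the 4 lines by limma. Both passed the filter only through the iPS lines, so these calls are partly set by it. Neurog3, known from endocrine pancreas, did not share the shape: it had 6.71 in A1 and 6.83 in A2, against 6.22 in DAC2, 3.59 in DAC8, 4.03 in REF1 and 7.33 in REF2, and was called higher against DAC8 and REF1.

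E proteins, the partners of both activators and Id proteins, were present in all lines. Tcf4 averaged 10.81 in A1 and 10.76 in A2, against 9.26 in DAC2, 9.89 in DAC8, 10.29 in REF1 and 9.54 in REF2, and was called higher against DAC2 (1.53) and REF2 (1.24). Tcf12 was called higher against the same lines, by 1.06 and 1.17 log2 units. Tcf3 stayed between 5.71 and 5.96 in all lines and was called in none of the 4 comparisons.

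Of a list of 10 other Hes, Hey and related genes, 7 were tested: Hes3, Hes6, Hey1, Hey2, Heyl, Bhlhe40 and Bhlhe41. Both against ES and against EF, 2 were called higher and 1 lower in iPS. Hes6 is a Hes family protein that favours neuronal differentiation, so these counts do not describe repressors alone. Hes3, a repressor of neural progenitors, had 6.74 in A1 and 7.10 in A2, against 2.66 to 2.87 in the other lines. Hes3 too passed the filter only through the iPS lines. Hey2 differed the other way, with 4.42 in A1 and 4.92 in A2, against 9.70 in DAC2, 7.68 in DAC8, 7.5 in REF1 and 9.47 in REF2, and was called lower against all 4. Hey1 did not separate iPS from the rest: it had 8.93 in A1 and 9.28 in A2, against 5.39 in DAC2, 8.57 in DAC8, 9.70 in REF1 and 5.05 in REF2. The median difference of the 7 was -0.49 against ES and -0.52 against EF, where that of all tested genes was 0.02 and 0.02. Among 5 Tle corepressors, Tle4 was called higher in the iPS lines against all 4 lines (by 1.5, 2.18, 3.0 and 1.9 log2 units against DAC2, DAC8, REF1 and REF2); 1 of the 5 was called higher against ES and 1 against EF. Tle3 was called lower against DAC2 (-1.61) and REF2 (-1.73), and Tle5 lower against DAC8 (-1.57) and REF1 (-1.02).

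On the Notch side, 2 of 5 tested ligands were called higher in iPS against ES and 2 against EF. Dll1, the ligand that proneural factors switch on, had 8.16 in A1 and 8.08 in A2, against 5.88 in DAC2, 4.57 in DAC8, 4.52 in REF1 and 6.23 in REF2. Dll3, which acts within the cell, had 8.38 in A1 and 8.17 in A2, against 5.62, 5.3, 5.23 and 5.76 in the same lines. Jag1 lay between the other lines, with 7.49 in A1 and 7.57 in A2, against 6.43 in DAC2, 10.33 in DAC8, 10.33 in REF1 and 6.12 in REF2. Among 14 tested receptor and signalling genes, 1 was called higher against ES and 1 against EF, and the median difference was -0.12 in both. The receptor Notch1 averaged 10.35 in A1 and 10.38 in A2, against 5.24 in DAC2, 7.45 in DAC8, 7.82 in REF1 and 4.98 in REF2, and was called higher by limma against each line. Mfng, which adds sugars to Notch, was called higher against DAC2, DAC8 and REF1 (1.53, 4.71 and 4.68 log2 units), and Maml2, a Notch coactivator, was called higher against DAC2 and REF2 and lower against DAC8 and REF1.

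On the BMP side, 1 of 10 tested ligands and antagonists was called lower in iPS against ES and 1 against EF, and 0 higher by limma. Bmp4 had 5.3 in A1 and 4.82 in A2, against 10.35 in DAC2, 9.12 in DAC8, 9.29 in REF1 and 10.54 in REF2, differences between -5.48 and -4.06 log2 units (limma adjusted p between 1.82e-11 and 4.93e-11). The antagonists Grem1 and Bmper were bright in DAC8 (12.41 and 9.62) and REF1 (12.29 and 8.71) and below 5 in A1, A2, DAC2 and REF2. Of 13 tested receptor and Smad genes, 2 were called lower against ES. Bambi, a decoy receptor that BMP signalling itself switches on, had 5.22 in A1 and 5.07 in A2, against 7.31 in DAC2, 9.51 in DAC8, 9.04 in REF1 and 7.59 in REF2, and was called lower against each line. The receptor Acvr1 was called higher in the iPS lines against DAC2 and REF2 and lower against DAC8 and REF1, and Acvr2b higher against DAC8 and REF1.

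**Figure D5:**
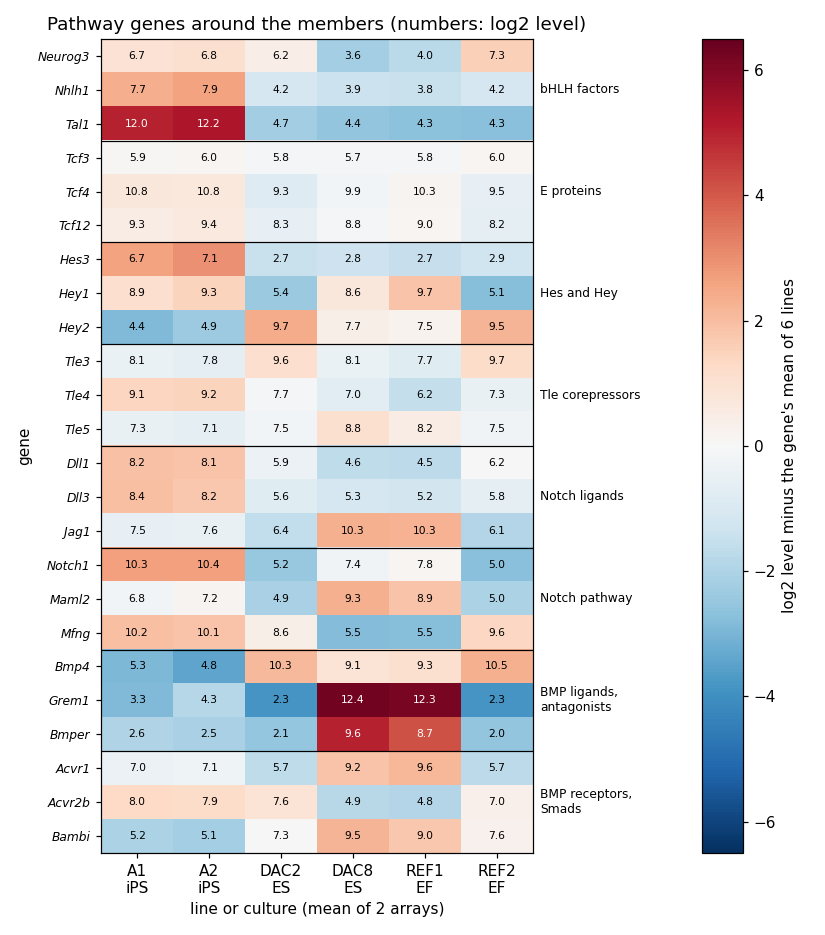
Rows are the 3 tested genes of each pathway list with the widest range over lines, columns are lines, numbers are mean log2 levels of 2 arrays and colours are deviations from the gene's mean over 6 lines. Tal1, Nhlh1, Hes3, Dll1, Dll3 and Notch1 are highest in A1 and A2, and Bmp4, Bambi and Hey2 are lowest there.

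Genes known as targets of proneural factors were called higher in iPS in 10 of 17 tested against ES and in 11 of 17 against EF. By limma, 0 were called lower. Of all tested genes, 2.98% were called higher against ES and 3.07% against EF. Nhlh1, Ebf2, Myt1, St18 and Elavl4 had line means below 5 in all non-iPS lines and passed the filter only through the iPS lines. Their higher calls are thus partly set by the filter. The target list shares Dll1 and Dll3 with the ligands and Elavl3, Elavl4, Dcx, Tubb3 and Stmn2 with the neuronal markers. It also shares Nhlh1 with the neuronal helix-loop-helix genes, Hes6 with the Hes and Hey list and Mfng with the Notch signalling genes. The median difference of the 17 targets was 2.89 log2 units against ES and 2.78 against EF, where that of all tested genes was 0.02 in both. Elavl4, a neuronal RNA-binding protein, had 10.70 in A1 and 10.64 in A2, against 3.33 to 4.05 in the other lines. Dcx, a microtubule protein of migrating neurons, had 10.20 in A1 and 10.27 in A2, against 4.69 in DAC2, 6.75 in DAC8, 6.46 in REF1 and 6.80 in REF2. Ebf2, a factor of neuronal differentiation, had 6.80 in A1 and 6.72 in A2, against 1.90 to 2.63 elsewhere. By line, 13 of the 17 targets were called higher and 2 lower in the iPS lines against DAC8, with the same counts against REF1. Against DAC2, 13 were called higher, and against REF2 12, with 0 lower in each. Of all tested genes, 16.5% were called higher against DAC2, 15.6% against DAC8, 16.4% against REF1 and 15.8% against REF2. The 2 lower targets were Ebf1 (-2.04 against DAC8, -2.14 against REF1) and Rgs16 (-3.81 and -3.48). Of 9 tested neuronal markers, 8 were called higher against ES and 8 against EF. Among the 9, Elavl4 and Snap25 passed the filter only through the iPS lines. Most of the listed targets and markers were thus high in the arrays in which Neurog1, Neurod1 and Hes5 were high. The part of cell composition in the members' levels was not tested.

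Marker lists of other cell types that could be present were set beside these values. Of 7 tested neural progenitor markers, 3 were called higher in iPS against ES and 2 against EF. By line, 5 of the 7 were called higher in the iPS lines against each other line. Against DAC2, 2 were called lower (Sox2, and Zic1 by -1.02), and against REF2 1 (Sox2). Cdh2 had 10.59 in A1 and 10.68 in A2, against 5.36 in DAC2, 9.64 in DAC8, 9.62 in REF1 and 7.49 in REF2. Pax6 had 7.33 in A1 and 7.76 in A2, against 2.15 to 2.37 in the other lines. Like Fabp7 of the same list, it passed the filter only through the iPS lines, so its higher calls are partly set by the filter. Sox2 had 9.43 in A1 and 9.31 in A2, against 11.48 in DAC2, 4.79 in DAC8, 3.86 in REF1 and 11.57 in REF2. Of 4 tested glial markers, 0 were called against ES or EF by limma, with 1 at an unadjusted p under 0.05 in each. By line, 3 of the 4 were called higher in the iPS lines against DAC2 and against REF2, and 2 higher and 1 lower against DAC8 and against REF1. Slc1a3, a glutamate transporter of glia, was higher by 3.09, 2.27, 1.84 and 3.10 log2 units against DAC2, DAC8, REF1 and REF2. In the same order Pdgfra differed by 5.07, 0.28, 0.09 and 3.07 and was not called against DAC8 or REF1. Sox10 went the other way, by -0.69, -2.16, -1.56 and -0.43, and was called lower against DAC8 and REF1. Of 11 tested fibroblast markers, 0 were called against ES or EF, with 0 at an unadjusted p under 0.05. By line, all 11 were called lower in the iPS lines against DAC8 and against REF1. Against DAC2, 2 were called higher and 1 lower, and against REF2 3 higher and 0 lower. Postn, Col3a1 and Tagln reached a line mean of 5 only in DAC8 and REF1, so their lower calls there are partly set by the filter.

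The genes most like each member were sought over the 12 arrays as those with the smallest root mean square difference in centred log2 level. For Neurog1 they were Ssuh2 (0.19), Gdap1 (0.21) and Cadps (0.22), and for Neurod1 Elovl2 (0.15), Dnajc6 (0.15) and Mapk11 (0.17). For Hes5 they were Chga (0.18), Nhlh1 (0.18) and Sctr (0.19), and for Hes1 Stk10 (0.19), Nfkb1 (0.19) and Rras (0.20). Id1 was nearest to Nexmif (0.17), Pex19 (0.23) and Samd10 (0.25), Id2 to Ttc27 (0.17), Znhit6 (0.20) and Tlcd5 (0.20), Id3 to S100a11 (0.36), Igf1r (0.42) and Dsel (0.43), and Id4 to Clcn4 (0.28), Tpd52l1 (0.32) and Arhgap18 (0.34). By this distance, which depends on how widely a gene varies, the nearest genes of Id3 and Id4 lay farther from them than those of the other members. By Pearson correlation the 3 genes of Id3 were close to it in shape (r = 0.990 to 0.997), against 0.889 to 0.940 for those of Id1. The 12 arrays share their lines in pairs, so these are likenesses over 6 lines.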

How the data were processed

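The authors deposited log2 signals for 31099 probe sets on 12 arrays, made with RMA and Partek 6.2 per the submitters' processing notes. RMA compresses differences of dim genes. The sources used here do not say whether the arrays were normalized in a single run. The range was 1.45 to 14.12, and no value was rescaled. The platform's gene table gave 1 symbol for 20832 probe sets, several for 436 and none for 9831. Groups are those of the labels. The members, gene lists, tests and most alternatives were chosen with earlier results of these data known.

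The fit of cell types used limma 3.58.1 in R 4.3.3, treating line as a random block with a consensus correlation of 0.965, and another limma fit had the 6 lines as its factor. P-values were adjusted by Benjamini-Hochberg over 11001 genes, after 3217 genes with no line mean of 5 were removed. Calls needed an adjusted p under 0.05 and at least 1 log2 unit. Named genes were the 8 members, the 3 tested genes per list with the widest range over lines, and the 3 nearest genes per member. The fits were tested on simulated data. Alternatives were other scalings, filters, blocks and probe set rules and each array or line left out; testing every probe set was added after the data were seen. The number of arrays limits the precision.

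Replicate numbers were not used to pair arrays. Deviations from line means correlated at r = -0.08 to 0.24 over 15 pairs of lines, and over 0.1 in 3. This does not exclude a pairing by replicate number. The fit without a replicate block is reported. No array pair held identical values.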

Additional observations from a re-analysis of the deposited data

Results flagged for a closer look

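Differences between lines that carry the same label were singled out because the limma fit with 6 lines called them. Hes1 was 1.02 log2 units higher in DAC8 than in DAC2 (SE 0.08; limma adjusted p = 1.86e-06), with 9.23 and 9.36 in DAC8 against 8.33 and 8.21 in DAC2. Id3 was 1.27 higher in DAC8 than in DAC2 (SE 0.06; adjusted p = 4.06e-08), and Id4 was 2.16 higher (SE 0.15; adjusted p = 4.62e-07). Id3 differed by -2.44 between REF2 and REF1 (SE 0.06; adjusted p = 5.75e-10), with 9.73 and 9.67 in REF2 against 12.18 and 12.10 in REF1. Of all 11001 tested genes, 40.2% were called between DAC8 and DAC2 and 40.3% between REF2 and REF1. Neurog1, Neurod1 and Hes5 were below 5 on every array of these lines, so no difference within either label is read for them. No single array stood apart from the other 3 of its cell type in the 24 groups of 4 values examined for the members; since each group is 2 lines of 2 close arrays, this says nothing about whole lines.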

How the results depend on the processing

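Each cell type has 2 lines, which limits the comparisons by label, and levels under 5 are not shown to be above background. Of the members' differences under all alternatives, 1695 kept their direction and their side of the threshold, 25 lost a call, 27 gained one and 17 changed sign; none of the sign changes was in a called difference of the main fits. Genes called for iPS against ES and iPS against EF numbered 855 and 918 with no filter, 1518 and 1585 with no line block (2 for ES against EF), 249 and 278 with line means (3 members against EF), 66 and 74 without line A1 (2 and 2 members), and 59 and 71 without line A2 (2 members against EF). Without the arrays labelled DAC8 and REF2, which left ES and EF with 1 line each, they were 3255 and 3566. For ES against EF, 4463 genes and 2 members were then called. Id2 for iPS against EF was then -0.16, and Id3 and Id4 for ES against EF were -1.17 and -1.15. For ES against EF, Hes1 was 0.24 without line DAC2, 2 genes were called and Id4 was -0.95 without DAC8, and Id3 was -0.54 and Id4 -0.070 without REF2, where Id2 for iPS against EF was -0.16. With the mean of probe sets, Id4 for ES against EF was -0.088, members called were 1 (DAC2 against REF1), 2 (DAC2 against REF2) and 1 (DAC8 against REF1), and the iPS balance minus DAC2, REF2, DAC8 and REF1 was 4.53, 4.79, 5.21 and 5.25 over Hes and 5.17, 4.83 and 5.85 over Id for DAC2, REF2 and REF1. DAC2 against REF2 for Id1 was 0.015 with quantile normalization and 0.022 with equal array medians. Only the lines compared left 14 genes for A1 against A2. With a replicate block, Hes1 for iPS against EF (-1.97) had an adjusted p of 0.0542 and lost its call; the block changed no other call. With 1 array left out at a time, A1 against A2 ranged from -0.072 to 0.044 for Neurog1 and -0.034 to 0.012 for Neurod1, Hes1 for DAC8 against REF1 from -0.035 to 0.090 and Id1 for DAC2 against REF2 from -0.020 to 0.013; members called ranged from 1 to 3 (DAC2 against REF1), 1 to 2 (DAC2 against REF2) and 1 to 2 (DAC8 against REF1). The cause of these changes was not tested.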

Other observations

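Further genes around Notch and BMP signalling, chosen after their values were seen, were set beside the members. Hes6, a Hes family protein that favours neuronal differentiation, averaged 11.79 in A1 and 11.65 in A2, against 8.02 in DAC2, 8.89 in DAC8, 8.98 in REF1 and 8.47 in REF2. Smad7, a feedback inhibitor of BMP and TGF-beta signalling, averaged 7.10 in A1 and 7.16 in A2, against 9.21 in DAC2, 8.99 in DAC8, 8.58 in REF1 and 8.23 in REF2. Its line differences were -2.09, -1.86, -1.46 and -1.11 log2 units against DAC2, DAC8, REF1 and REF2. The receptor-regulated Smad1 was nearer to the other lines, with 10.06 in A1 and 10.07 in A2, against 9.31 in DAC2, 9.88 in DAC8, 9.71 in REF1 and 9.57 in REF2. The neuronal gene Myt1 averaged 8.21 in A1 and 8.31 in A2, against 3.61 to 3.96 in the other lines. Rgs16, also listed as a proneural target, did not separate the iPS lines from the rest: it averaged 5.89 in A1 and 5.41 in A2, against 5.29 in DAC2, 9.46 in DAC8, 9.14 in REF1 and 5.96 in REF2.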
